A study of Caenorhabditis elegans with 36 samples.

Results

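The col genes of Caenorhabditis elegans, named col- and a number, encode collagens, most of them collagens of the cuticle. The C. elegans Genome Array used here held 128 of them, out of 17118 genes, on a probe set annotated to 1 gene symbol. A member was any gene with such a name and such a probe set, and the brightest probe set on average over all arrays stood for a gene with several. Another 20 col genes lay only on probe sets annotated to several genes, among them col-7, col-10, col-13 and col-144, and were left out. The study compared synchronized first-stage (L1) larvae of 4 strains, left untreated, exposed to UV or starved, which gives 12 groups on 36 arrays. There were 3 arrays per group except for starved daf-16 larvae (2) and starved daf-2;daf-16 larvae (4).

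N2 is the wild type. The gene daf-2 encodes the insulin-like receptor, daf-16 a FOXO transcription factor held in check by it, and daf-2;daf-16 larvae are mutant in both. The labels give the genotypes but no alleles, and their protocol text is the same for every array: larvae fed for 4 h, then given UV, and collected after a further 6 h. Neither a UV dose nor how the starved larvae were handled is stated there. RNA came from whole larvae, so fewer cells of a type and less RNA per cell cannot be told apart. The labels do not tell whether the replicates of a group were grown apart, so a p-value here speaks of the scatter among these arrays alone, and their number limits the precision.

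The cuticle is an extracellular coat of cross-linked collagens that the epidermis secretes and replaces at each molt. Each cuticle collagen gene is switched on in a pulse at a set time of the molting cycle, and collagens made in the same pulse assemble into the same structure, such as the furrows that ring the body. The chains are hydroxylated and folded in the endoplasmic reticulum, trimmed by proteases and cross-linked outside the cell.

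All values are log2 signals, and a gene is said to rise, fall or change where limma gave an adjusted p under 0.05 over all 22548 probe sets. Shares of all probe sets are for such calls with all arrays. No share is given for unadjusted p-values or for fits without some arrays, so those counts of members have no such background. Levels of different genes were not compared, since each probe set has its own brightness. Of the 128 members, 51 were read by a probe set that can also match other transcripts, col-159, col-160, col-41, col-17, col-128 and col-107 among them. Their values may hold signal of near-identical collagens. The group means of a member spanned 0.93 in the median, from 0.279 to 7.86, and 55 members spanned more than 1.

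Before any comparison, 3 arrays differed from the others of their group over the members. In untreated daf-2;daf-16 larvae, replicate 1 differed from the other two arrays with an SD over members of 0.629 and 0.641, against 0.145 between those. In daf-16 larvae after UV, replicate 3 differed with an SD of 0.561 and 0.464, against 0.269 between the other two, and in starved daf-2;daf-16 larvae, replicate 4 differed with SDs of 0.37 to 0.389, against 0.168 to 0.189. Many counts of col genes that rest on these arrays are given with and without them.

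After UV, more col genes rose than fell in N2. There were 48 of 128 members higher (37.5%, against 13.6% of all probe sets) and 11 lower (8.59%, against 15.2%). The median log2 change was 0.23 over the members and 0.03 over all probe sets. At least 2-fold, 17 members rose, against 2.52% of all probe sets, and 9 fell, against 2.86%.

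The collagen genes that rose most after UV were col-159, col-39, col-80 and col-160. For col-39 the untreated N2 arrays read 5.73, 5.53 and 5.37 and the UV arrays 9.28, 9.69 and 9.73. Its groups were far apart, with a log2 change of 4.02 (SE 0.22, adjusted p = 2.3e-15). For col-80 the untreated arrays read 7.29, 7.16 and 6.87 and the UV arrays 10.83, 10.98 and 10.84, a change of 3.78 (SE 0.25, adjusted p = 1.5e-13). For col-159 the untreated arrays read 7.97, 7.18 and 7.51 and the UV arrays 11.50, 11.84 and 11.61, a change of 4.10 (SE 0.28, adjusted p = 3.2e-13). None of these 3 genes had an untreated array within 2-fold of a UV array. The next largest rises were those of col-160 (2.95), col-103 (2.6), col-98 (2.57), col-145 (2.30), col-176 (2.23), col-142 (1.93) and col-147 (1.73). In the RefSeq annotation of assembly WBcel235, col-39 and col-80 are neighbours, as are col-159 with col-160 and col-141 with col-142. The other neighbour of col-39, col-79, had a UV change of 0.12 that did not pass the test.

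The 11 members that fell after UV in N2 were col-17, col-41, col-48, col-73, col-90, col-111, col-128, col-131, col-153, col-172 and col-173. For col-90 the untreated arrays read 11.44, 11.63 and 11.81 and the UV arrays 8.07, 8.35 and 9.01, a change of -3.15 (SE 0.49, adjusted p = 5.9e-06). For col-128 the untreated arrays read 10.13, 10.35 and 10.37 and the UV arrays 7.76, 7.20 and 8.26, a change of -2.54 (SE 0.34, adjusted p = 4.2e-07). In both genes every UV array lay below every untreated array. The other falls ran from -2.32 for col-153 and -2.30 for col-41 to -0.83 for col-111.

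**Figure D1:**
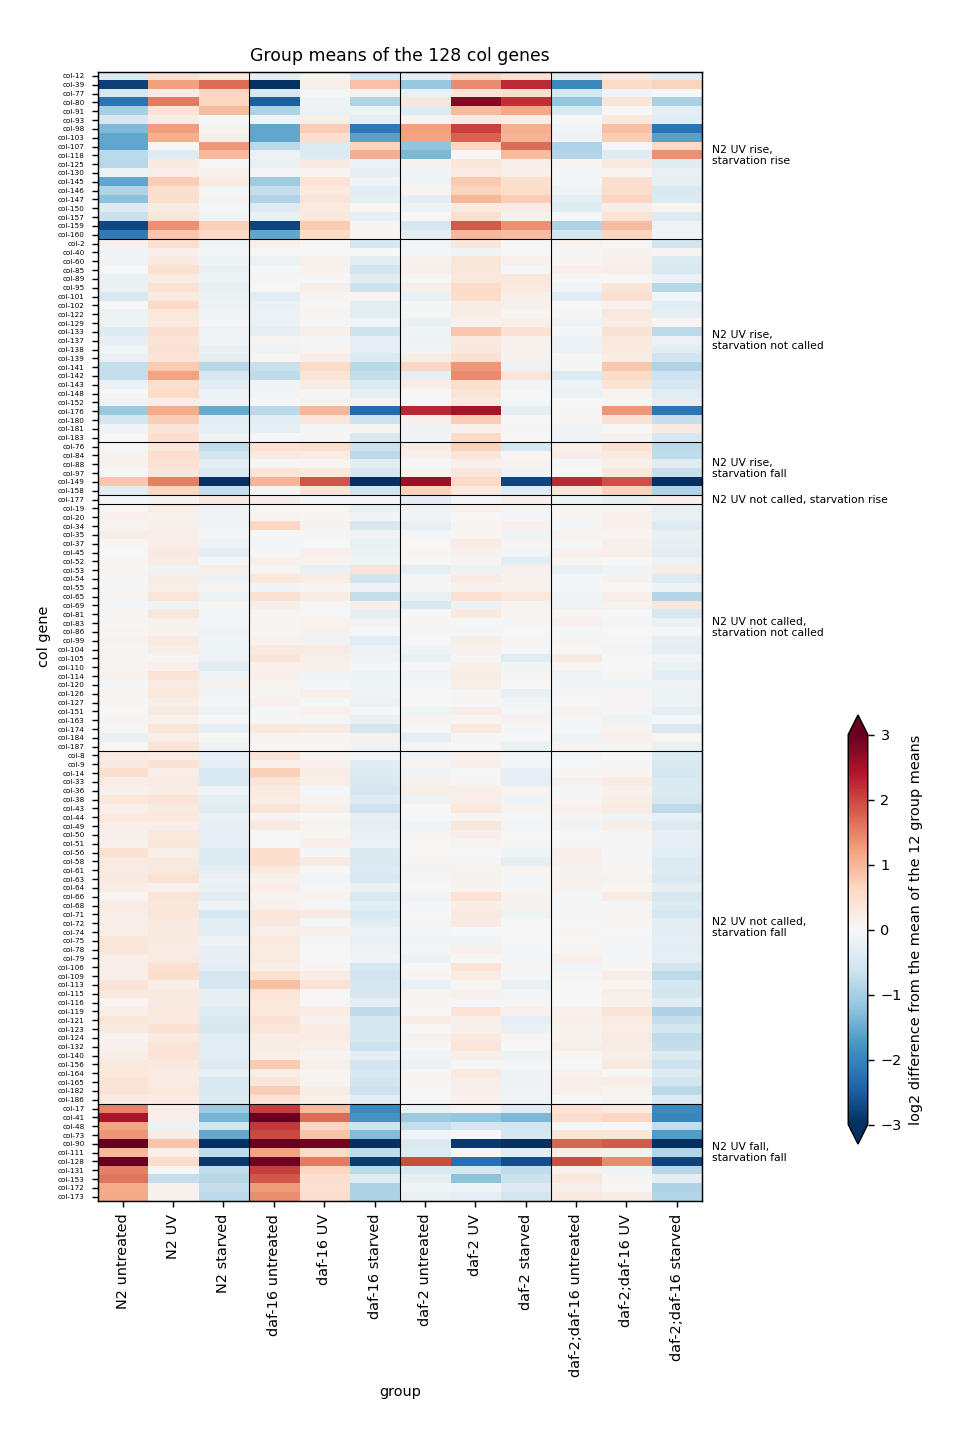
Group means of the 128 col genes (rows) in the 12 groups (columns), as log2 differences from the mean of each gene's 12 group means; the horizontal lines separate genes by their calls after UV and in starvation in N2. The 11 genes at the foot were high in untreated N2 and daf-16 larvae and low in starved larvae, and the 19 at the top were low in untreated N2 and daf-16 larvae.

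In starved N2 larvae the balance lay the other way. There were 57 members lower (24.7% of all probe sets) and 20 higher (28.3% of all probe sets), with a median of -0.25 over the members and -0.03 over all probe sets. The same 11 members that fell after UV were among the 57, and 19 of the 20 that rose were also higher after UV, but both comparisons use the same untreated arrays. The exception among the rises was col-177, at 0.30 in starvation and 0.11 after UV.

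Starvation took col-90 down to 4.67, 4.46 and 4.49, a change of -7.08 (SE 0.49, adjusted p = 3.8e-14), and col-128 to 4.16, 4.26 and 4.47, a change of -5.98 (SE 0.34, adjusted p = 2.1e-16). For both, the starved arrays lay below the UV arrays as well. The next falls were those of col-149 (-3.89), col-41 (-3.84), col-73 (-2.87), col-17 (-2.57), col-153 (-2.43), col-131 (-2.27), col-173 (-1.92) and the pair col-48 and col-172 (both -1.78). Among the rises, col-39 reached 10.17, 9.93 and 9.95, a change of 4.47 (SE 0.22, adjusted p = 3.9e-18). It was followed by col-159 (3.45), col-107 (2.89), col-80 (2.87), col-160 (2.71), col-91 (1.94), col-145 (1.82), col-118 (1.78), col-103 (1.74) and col-98 (1.40). The calls of col-158 (-0.41) and col-150 (0.34) were lost without some single arrays, at -0.30 for col-158 without untreated replicate 1 and 0.27 for col-150 without untreated replicate 2.

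Compared directly in N2, the 2 treatments separated most of the family. There were 103 members higher after UV than in starvation (30.2% of all probe sets) and 4 lower (27.2%), with a median difference of 0.55 over the members and 0.09 over all probe sets. The 4 that were lower after UV were col-118 (-1.36, SE 0.13), col-107 (-1.26, SE 0.19), col-91 (-0.57, SE 0.18) and col-77 (-0.39, SE 0.14). For col-107 the UV arrays read 10.35, 10.52 and 10.42 and the starved arrays 11.77, 11.63 and 11.67, without overlap. The call of col-77 was lost without UV replicate 1 (-0.32) and without starved replicate 1 or 3 (both -0.37), and that of col-91 without starved replicate 3 (-0.47).

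By their calls in N2 the members fell into 7 groups. After UV and starvation respectively, 19 rose in both, 23 rose after UV with no call in starvation, 6 rose and fell, 1 had no call and rose, 28 had no call in either, 40 had no call after UV and fell in starvation, and 11 fell in both. The 40 that fell in starvation alone did so by little, between -0.29 and -0.97. Members without a call in any of the 19 comparisons made were col-55, col-120, col-127, col-163 and col-184. The 6 that rose after UV and fell in starvation were col-76, col-84, col-88, col-97, col-149 and col-158.

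The largest contrast within those 6 was that of col-149. Its untreated N2 arrays read 11.45, 11.20 and 10.97, the UV arrays 12.02, 11.66 and 12, and the starved arrays 7.41, 7.29 and 7.26. No 2 of these groups overlapped, and the changes were 0.69 (SE 0.18, adjusted p = 0.0038) after UV and -3.89 (SE 0.18, adjusted p = 1.7e-18) in starvation. Its neighbour col-150 changed by 0.64 after UV and by 0.34 in starvation.

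**Figure D2:**
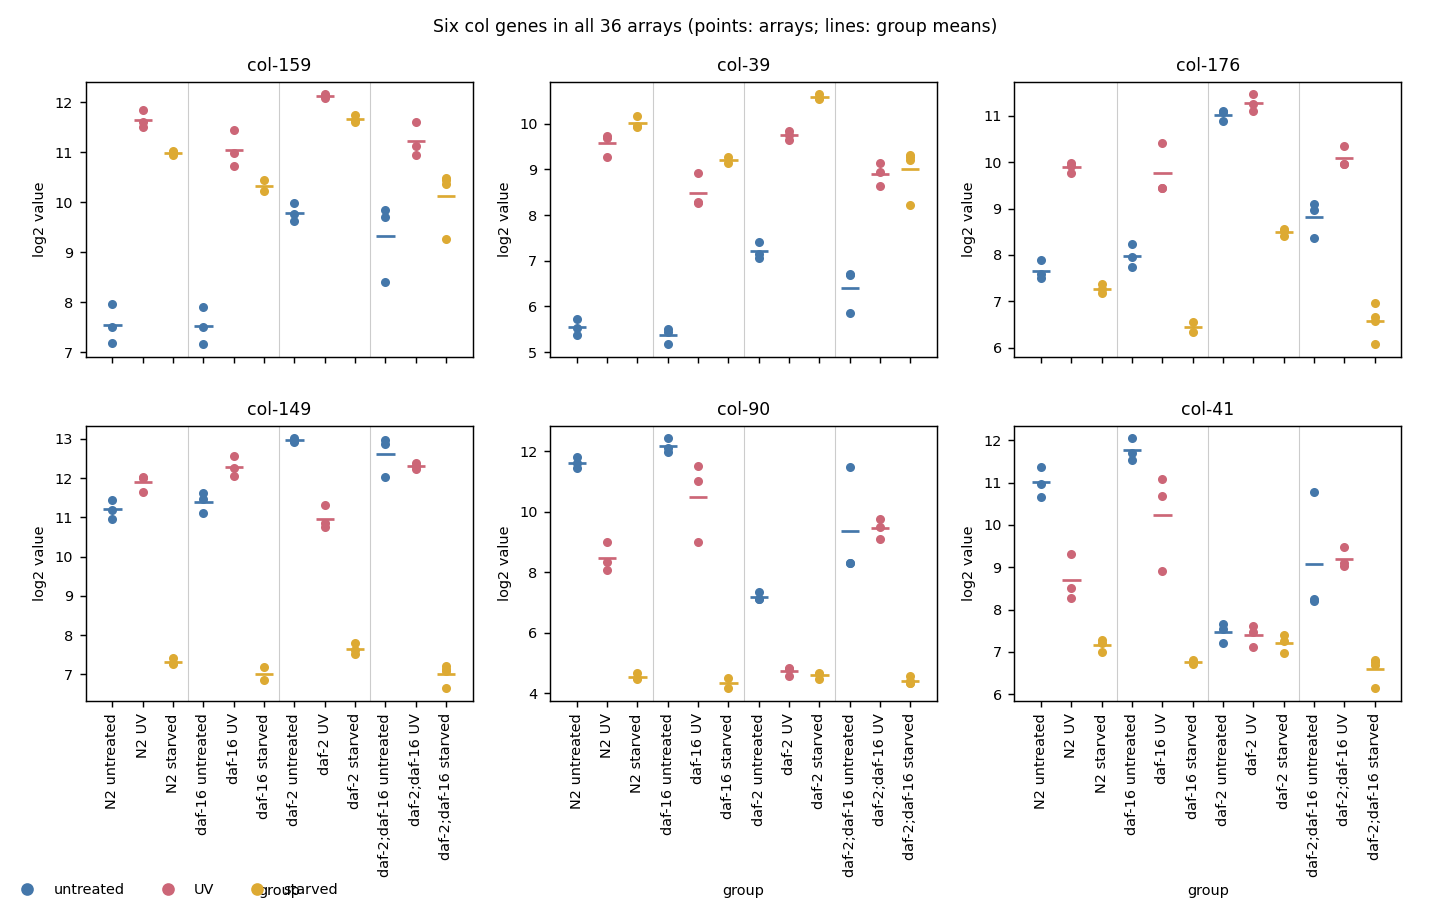
Log2 values of 6 col genes in all 36 arrays, by group; points are arrays, horizontal lines group means, and colours treatments. In col-90 and col-41, the first replicate of the untreated double mutant (11.50 and 10.78) lay near the untreated N2 arrays and the other two at or below 8.32.

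The groups formed on N2 were then followed in the other strains. The arrays of those strains gave none of the N2 means. They did share in the estimate of spread behind the N2 calls and in the choice of probe set. How often other genes with the same N2 calls were called again is not given here. The counts for these groups, after UV and in starvation, therefore have no such background and describe the members only. After UV, 16 of the 19 members that rose in both N2 treatments also rose in daf-16 larvae, 17 in daf-2 larvae and 15 in daf-2;daf-16 larvae, and none fell. One of the 19, col-157, rose by 1.05 after UV in N2 on its shared probe set and had -0.06, not called, on its unshared one. The median changes of the 19 were 0.72, 0.91 and 0.65. Without daf-16 UV replicate 3 the count in daf-16 was 12, and without daf-2;daf-16 untreated replicate 1 the count in the double mutant was 11. Across all 128 members the UV changes in N2 correlated with those in daf-16 at r = 0.96, in daf-2 at 0.74 and in the double mutant at 0.82. These strains share no arrays, and the points are genes on the same arrays, so the coefficients are descriptive.

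Over the whole family, UV raised 23 members in daf-16 (11.3% of all probe sets) and lowered 19 (7.76%), raised 38 in daf-2 (12.3%) and lowered 4 (12.6%), and raised 25 in daf-2;daf-16 (7.03%) and lowered none (7.58%). The medians were -0.05, 0.25 and 0.10, against -0.02, 0.02 and -0.04 over all probe sets. In the double mutant, 37 members passed an unadjusted p under 0.05 in limma, in either direction. Without daf-16 UV replicate 3, the daf-16 counts fell to 16 higher and 8 lower. Without daf-2;daf-16 untreated replicate 1, 20 members were higher and 1 lower in the double mutant, the lower one being col-149 (-0.60, adjusted p = 0.012). There were 15 members called higher after UV in all 4 strains: col-12, col-39, col-80, col-98, col-103, col-133, col-141, col-142, col-145, col-146, col-147, col-150, col-157, col-159 and col-160. No member fell in all 4. The share of all probe sets called alike in all 4 strains is not given here, so these counts are not set against it. Of the 15, col-12, col-133, col-145, col-146, col-147, col-157, col-159 and col-160 were read by shared probe sets. The unshared probe set of col-157 had -0.06 in N2, 0.12 in daf-16 larvae, 0.22 in daf-2 larvae and 0.0 in the double mutant. None of these 4 values was called.

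Among these, col-39 went from 5.17, 5.44 and 5.51 to 8.28, 8.27 and 8.92 in daf-16, a change of 3.12 (SE 0.22, adjusted p = 2.5e-12). In daf-2 it went from 7.42, 7.06 and 7.15 to 9.75, 9.64 and 9.85, a change of 2.54 (SE 0.22, adjusted p = 3.8e-11). In daf-2;daf-16 it went from 5.85, 6.71 and 6.68 to 8.94, 8.64 and 9.14, a change of 2.49 (SE 0.22, adjusted p = 3.2e-10). The UV arrays lay above the untreated arrays in every strain. Several smaller rises rested on single arrays. In daf-2;daf-16, the calls of col-145 (0.56), col-157 (0.43), col-146 (0.68), col-133 (0.49) and col-141 (0.76) were lost without untreated replicate 1, at 0.20, 0.24, 0.46, 0.42 and 0.60. In daf-2, that of col-103 (0.56) was lost without any of 5 of the 6 arrays, at 0.51 without untreated replicate 3, that of col-141 (0.67) without untreated replicate 3 (0.55) or UV replicate 3 (0.54), and that of col-150 (0.41) without untreated replicate 3 (0.33). In daf-16, the calls of col-12 (0.37) and col-133 (0.47) were lost without UV replicate 3, at 0.27 and 0.38.

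The 11 members that fell in N2 all fell after UV in daf-16, with a median of -1.37, while 6 of them did so without UV replicate 3 (median -0.83). Without that array col-90 changed by -0.92 in place of -1.67 and col-41 by -0.87 in place of -1.53, and both calls were lost. Without all 3 arrays that stood apart these changes were the same size and called (adjusted p = 6.8e-04 and 0.0037), and 10 of the 11 fell. Untreated, all 11 were lower in daf-2 (median -1.68) and in daf-2;daf-16 (median -1.14) than in N2. Those N2 arrays also served to pick the 11, and the part of these starting levels was not tested. After UV, 3 of the 11 fell in daf-2 larvae, namely col-90, col-128 and col-153, and in daf-2;daf-16 none did. The medians were -0.04 and -0.07. Without daf-2;daf-16 untreated replicate 1 the median in the double mutant was 0.29 and col-90 was called higher there (1.14, SE 0.36, adjusted p = 0.026). In daf-2 larvae col-128 went from 9.06, 9.06 and 9.32 to 5.30, 4.94 and 4.50, a change of -4.23 (SE 0.34, adjusted p = 9.3e-12). In daf-2;daf-16 larvae it went from 10.20, 8.70 and 8.52 to 8.41, 8.93 and 8.44, with overlapping groups and a change of -0.55 (SE 0.34, adjusted p = 0.35). The difference between those responses was -3.69 (SE 0.48, adjusted p = 2.8e-06), and -4.22 without daf-2;daf-16 untreated replicate 1. The response of col-90 also differed, by -2.54 (SE 0.70, adjusted p = 0.023), but that call was lost without each of 5 single arrays in turn, at -2.0 without daf-2;daf-16 untreated replicate 2 and -2.01 without replicate 3, while without replicate 1 the difference was -3.60.

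Direct tests of strain differences in the UV response called 9 members with a higher response in daf-2 than in N2 (2.09% of all probe sets) and 13 with a lower one (2.57%). The clearest was col-149. In daf-2 larvae it went from 13.02, 12.96 and 12.92 to 11.31, 10.85 and 10.75, so that it fell by 2.0 where in N2 it rose, and the difference was -2.68 (SE 0.26, adjusted p = 5.1e-08). The response of col-149 in daf-2 was also lower than in daf-2;daf-16, by -1.69 (SE 0.26, adjusted p = 2.8e-05). Smaller responses in daf-2 than in N2 were found for col-103 (-2.04, SE 0.27, adjusted p = 1e-05) and col-176 (-1.97, SE 0.29, adjusted p = 3.5e-05). Both were higher in untreated daf-2 than in untreated N2 larvae. Those untreated arrays enter the difference itself, and the part of the starting level was not tested. Set against the double mutant, daf-2 larvae had 4 members that responded more (2.7% of all probe sets) and 4 less (2.75%), and 16 members in all without the 3 arrays named above. Between daf-16 and N2, 4 members responded less (0.807%) and none more (1.04%). At an unadjusted p under 0.05 in limma there were 41 members. The number called at the adjusted threshold ran from 0 to 15 as single arrays were left out. The 15, without daf-16 UV replicate 3, were 12 lower and 3 higher responses, the higher ones being col-90 (2.23), col-128 (1.75) and col-153 (1.36). Without the 3 arrays there were 26 lower and 4 higher, with col-41 (1.43) as the further gene.

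**Figure D3:**
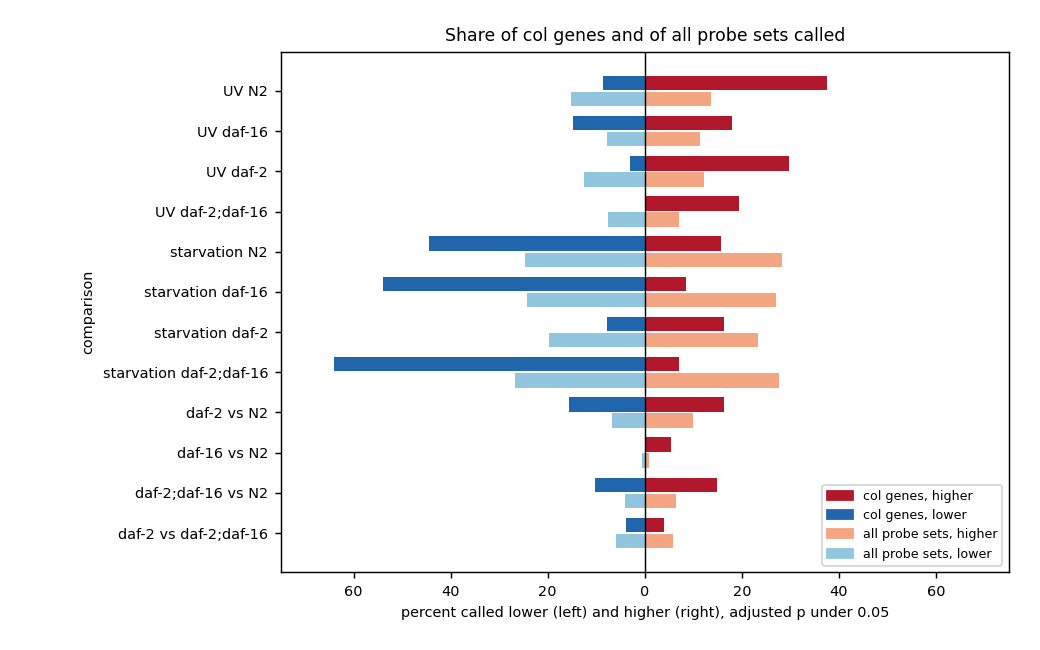
Percent of the 128 col genes (dark) and of all 22548 probe sets (light) called lower (left of 0) or higher (right of 0) in 12 comparisons, at an adjusted p under 0.05. In starved larvae, lower calls among the col genes reached 82 of 128 in daf-2;daf-16 and 10 of 128 in daf-2.

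In starvation the counts also differed between the strains. Across all 128 members the starvation changes in N2 correlated with those in daf-16 at r = 0.95. With those in daf-2 the value was 0.79 and with those in the double mutant 0.80, as description only. In daf-16 larvae 69 members fell (24.2% of all probe sets) and 11 rose (27%), and in daf-2;daf-16 larvae 82 fell (26.8%) and 9 rose (27.7%), while in daf-2 larvae 10 fell (19.7%) and 21 rose (23.3%). The medians were -0.42, -0.38 and 0.02, against -0.04, -0.05 and 0.03 over all probe sets. Of the 40 members that fell in starved N2 alone, 37 fell in daf-16, 35 in daf-2;daf-16 and 2 in daf-2. Of the 11 that fell in both N2 treatments, all fell in daf-16 and daf-2;daf-16 and 2 in daf-2, col-90 and col-128. As given above, all 11 already lay lower in untreated daf-2 and daf-2;daf-16 than in N2 larvae, and the part of this was not tested. Without daf-2;daf-16 untreated replicate 1, the double mutant had 68 members lower and 7 higher in all, 27 of the 40 and 8 of the 11, and col-90 there changed by -3.90 in place of -4.96 and col-41 by -1.63 in place of -2.48. Without starved replicate 4 it had 73 lower and 9 higher, 34 of the 40 and 10 of the 11.

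The starvation responses of daf-2 and of the double mutant were compared directly. There were 41 members with a higher response in daf-2 (5.25% of all probe sets) and none with a lower one (7.54%), with a median difference of 0.40 and 69 members at an unadjusted p under 0.05 in limma, and 40 and none without daf-2;daf-16 untreated replicate 1. Without daf-2;daf-16 starved replicate 4 there were 33 and none. With all arrays they included 12 of the 19 that rose in both N2 treatments, 12 of the 40 and 6 of the 11, against 15, 10 and 4 without that untreated array and 9, 10 and 5 without that starved array. For col-17 the daf-2 arrays went from 11.43, 11.60 and 11.64 to 11.32, 11.44 and 11.29. The daf-2;daf-16 arrays went from 13.07, 11.73 and 11.74 to 10.15, 10.07, 9.74 and 9.40. The starved double mutant arrays lay below all others, and the responses differed by 2.14 (SE 0.32, adjusted p = 1.2e-05). Without untreated replicate 1, col-41 differed by 1.38 in place of 2.23 and kept its call, and col-90 differed by 1.30 in place of 2.36 and lost it.

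Against N2, 33 members responded higher in starved daf-2 larvae (5.96% of all probe sets) and 10 lower (8.89%), and the total of 43 dropped to 26 without N2 untreated replicate 3. The largest differences were those of col-90 (4.48, SE 0.70, adjusted p = 2.2e-05), col-41 (3.59, SE 0.61, adjusted p = 7.6e-05) and col-73 (2.44, SE 0.33, adjusted p = 2.5e-06). In daf-2 larvae col-41 read 7.20, 7.53 and 7.65 untreated and 6.97, 7.40 and 7.26 starved, so its daf-2 groups overlapped, while in starved N2 larvae it read 7.22, 7.0 and 7.27. Its starvation change in daf-2 was -0.26 (SE 0.43, adjusted p = 0.7). Lower responses than in N2 were found for col-176 (-2.14), col-103 (-1.93) and col-159 (-1.57). Between daf-16 and N2, 14 members responded lower (1.71%) and none higher (1.29%), with 35 at an unadjusted p under 0.05 in limma, among them col-98 (-1.98), col-103 (-1.80) and col-107 (-1.42). That count was 7 without daf-16 starved replicate 2, 8 without replicate 1 and 27 without the 3 arrays.

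Starvation raised 6 members in all 4 strains, col-39, col-77, col-107, col-118, col-150 and col-159, and lowered 7, col-33, col-76, col-90, col-121, col-128, col-149 and col-158. In daf-2;daf-16, col-159 changed by 0.82 (SE 0.26, adjusted p = 0.0079), and by 0.36 without its call once untreated replicate 1 was left out. The call of col-33 in starved daf-2 larvae (-0.42) was lost without 4 single arrays, at -0.33 without untreated replicate 1, and those of col-77 (0.63), col-150 (0.44) and col-158 (-0.54) in starved daf-16 larvae were lost without starved replicate 1 (0.45 and 0.36) or starved replicate 2 (-0.36). Another 9 members were called higher in one strain and lower in another. Shares of all probe sets called alike in all 4 strains or in opposite directions are not given here, so these counts are lists only. In col-98 the N2 arrays rose from 10.01, 9.31 and 9.17 to 10.90, 10.85 and 10.93, a change of 1.40 (SE 0.23, adjusted p = 2.9e-06). Its daf-2;daf-16 arrays dropped from 10.30, 10.88 and 11 to 8.76, 8.98, 8.90 and 7.76, a change of -2.12 (SE 0.21, adjusted p = 1.9e-10). Neither pair of groups overlapped. The same pattern held for col-103, at 1.74 in N2 and -1.52 in daf-2;daf-16.

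Untreated larvae of the strains also differed in col genes. In daf-2 larvae 21 members were higher than in N2 (9.97% of all probe sets) and 20 lower (6.81%), with a median of -0.11. The N2 arrays in these comparisons are also the baseline of both N2 treatments, so the values are given side by side and not as a shared pattern. The arrays of col-176 read 7.88, 7.5 and 7.59 in N2 and 11.08, 11.10 and 10.89 in daf-2, a difference of 3.36 (SE 0.20, adjusted p = 2.3e-14). Further genes that were higher were col-103 (2.75), col-80 (2.54), col-98 (2.54), col-159 (2.24), col-160 (1.83), col-149 (1.76), col-39 (1.67), col-145 (1.43) and col-141 (1.34). Lower in daf-2 were col-90, at 7.13, 7.11 and 7.33 (-4.43, SE 0.49, adjusted p = 2.3e-08), and col-41 (-3.54, SE 0.43, adjusted p = 1.3e-07), with col-131 (-1.97), col-48 (-1.91), col-153 (-1.87), col-17 (-1.68), col-73 (-1.42), col-111 (-1.38), col-173 (-1.36) and col-172 (-1.17). Groups without overlap were a condition for naming these genes, so that is not a result.

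The double mutant also stood away from N2, with 19 members higher (6.45% of all probe sets) and 13 lower (4.1%), though that total of 32 dropped to 17 without daf-2;daf-16 untreated replicate 2 or without replicate 3. For col-176 its arrays read 8.36, 8.97 and 9.10, above all untreated N2 arrays and below all untreated daf-2 arrays. The difference from N2 was 1.15 (SE 0.20, adjusted p = 0.00019) and that from daf-2 was 2.21 (SE 0.20, adjusted p = 5.6e-10). Against the double mutant, 5 members were higher in daf-2 (5.75% of all probe sets) and 5 lower (5.84%), shares below those of all probe sets. After col-176 these were col-80 (1.5), col-103 (1.31), col-98 (1.31) and col-39 (0.80), and on the lower side col-90 (-2.18), col-41 (-1.62), col-111 (-0.60), col-105 (-0.51) and col-118 (-0.46). Without daf-2;daf-16 untreated replicate 1, col-90 differed by -1.11 and col-41 by -0.78, where its call was lost, and those of col-39 (0.51) and col-111 (-0.28) were lost too. The call of col-118 was lost without daf-2;daf-16 untreated replicate 2 (-0.42) and without daf-2 untreated replicate 2 or 3 (both -0.43). In untreated daf-16 larvae 7 members were higher than in N2 (0.825%) and none lower (0.603%), with 22 at an unadjusted p under 0.05 in limma. That count was 1 without daf-16 untreated replicate 1 and at most 8 without another array. Without that array col-48 differed by 0.79 in place of 0.93, col-107 by 0.63 in place of 0.78, col-118 by 0.44 in place of 0.63 and col-34 by 0.50 in place of 0.55, each losing its call. The call of col-125 (0.61) was lost without N2 untreated replicate 2 (0.50).

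Other collagens of the cuticle carry names from the body shape of their mutants. The 5 measured furrow collagens, dpy-2, dpy-3, dpy-7, dpy-8 and dpy-9, all fell after UV in N2 (median -2.09) and in daf-2 (-4.11), and none was called in daf-2;daf-16 (-0.59). For dpy-7 the UV response in daf-2 was lower than in daf-2;daf-16 by -3.46 (SE 0.44, adjusted p = 1.6e-06), next to -3.69 for col-128. Both this difference and the -0.59 include untreated daf-2;daf-16 replicate 1, which stood apart. The mean of the 5, as a log2 difference from the average array, was 2.96 in that array and 1.82 and 1.77 in replicates 2 and 3. After UV it was 1.45, 1.82 and 1.48 in daf-2;daf-16. All 5 fell in starvation in all 4 strains, by -6.67 in the median in N2. Of the other 14 named cuticle collagens measured, 9 fell and 1, bli-2, rose after UV in N2, and 11 fell in starvation, among them sqt-1 (-7.62, SE 0.45), dpy-5 (-7.59, SE 0.45) and rol-6 (-5.72, SE 0.45). The collagens of the basement membrane, which lies under the tissues and is not replaced at a molt, moved less: emb-9 had -0.20 after UV and 0.12 in starvation, neither called, cle-1 had 0.15 and 0.12, not called, and let-2 fell by 0.32 and by 0.30.

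Genes that process collagens were called in both directions. For these, the named collagens above and the lists that follow, the shares of all probe sets called are given here. In N2 they were 13.6% higher and 15.2% lower after UV and 28.3% higher and 24.7% lower in starvation. After UV in daf-2 larvae they were 12.3% higher and 12.6% lower. Of 19 processing genes measured, 9 fell and 2 rose after UV in N2, and 12 fell and 3 rose in starvation. The prolyl 4-hydroxylase subunits dpy-18 and phy-2, which hydroxylate the chains, changed by -1.18 and -1.25 after UV and by -3.16 and -4.12 in starvation, and their partner pdi-2, a protein disulfide isomerase, by -0.61 and -3.30. The protease bli-4, which trims collagens, changed by -0.89 and -1.25. The peroxidase mlt-7, which cross-links the new cuticle, rose by 1.81 (SE 0.16, adjusted p = 1.3e-10) and 2.92 (SE 0.16, adjusted p = 8e-17).

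Most molting genes outside the collagens fell in both N2 treatments. Of 26 measured, 18 fell and 2 rose after UV in N2, and 23 fell and 1 rose in starvation. Their mean, as a log2 difference from the average array, was 1.82 to 1.93 in untreated N2, 0.53 to 0.94 after UV and -2.21 to -2.17 in starvation. In daf-2 larvae it was 1.20 to 1.31 untreated, -1.05 to -0.42 after UV and -2.20 to -1.92 starved, and in daf-2;daf-16 larvae 1.16 to 1.70, 0.87 to 1.11 and -2.21 to -2.18. The same mean over the 11 members that fell was 1.54 to 2.03 in untreated N2, -0.23 to -0.13 in untreated daf-2, -0.85 to -0.79 in daf-2 after UV and, in untreated daf-2;daf-16, 1.59 in replicate 1 and 0.05 in both others. In daf-2 after UV the median change was -2.67 over the molting genes, with 16 of 26 lower (12.6% of all probe sets). Over the 11 members it was -0.04, with 3 lower. Untreated daf-2 larvae differed from N2 in the median by -0.39 over the molting genes and by -1.68 over the 11 members. The 11 were picked by falls from these same untreated N2 arrays, which tilts their value downward, so these medians are not compared. The stage reached in the molting cycle was not measured apart from these genes, and its part in the collagen changes was not tested.

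**Figure D4:**
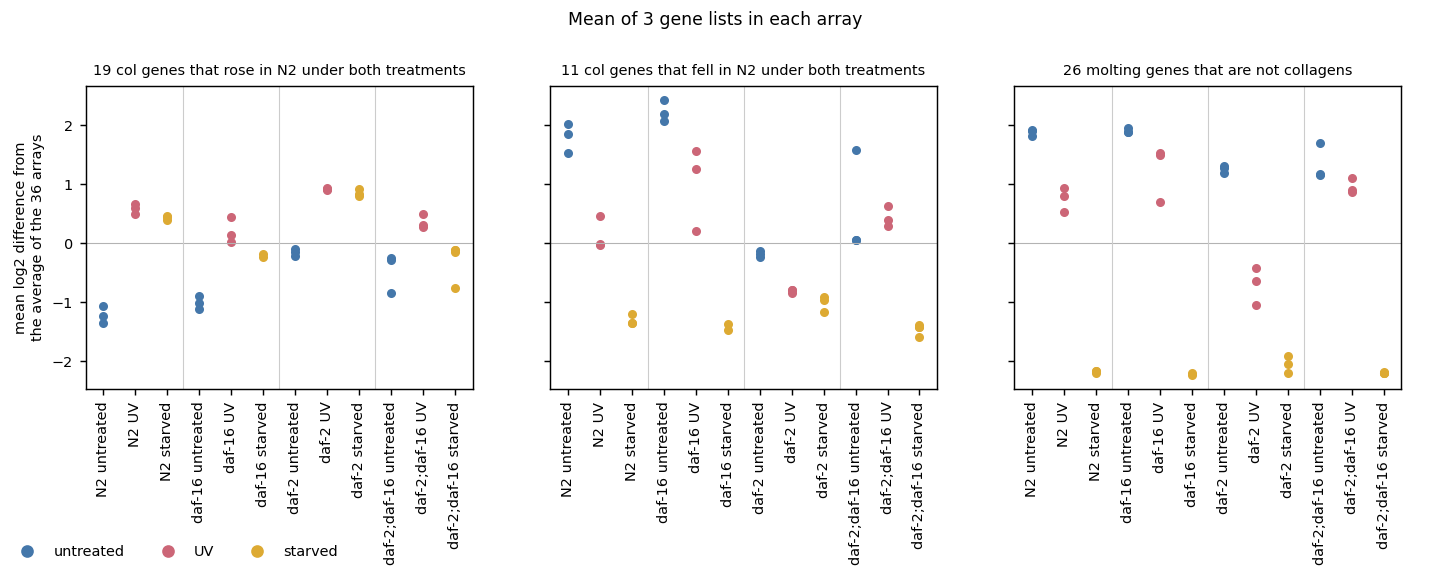
Mean log2 difference from the average of the 36 arrays, per array, for the 19 col genes that rose and the 11 that fell in both N2 treatments and for 26 molting genes that are not collagens; points are arrays and colours treatments. The molting genes were lowest in all starved groups (-2.24 to -1.92). The 11 col genes in untreated daf-2 larvae (-0.23 to -0.13) lay below untreated N2, whose arrays also served to pick them.

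Regulators of the epidermis and of molting fell more often than they rose, 6 against 1 of 12 after UV in N2 and 9 against 2 in starvation. The nuclear receptor nhr-23, which drives the molting cycle, changed by -0.25 after UV in N2 without a call, fell by 1.40 (SE 0.12) in daf-2 after UV and fell by 3.42 (SE 0.12) in starved N2. Of 7 measured epidermis markers, 2 rose and 2 fell after UV in N2, and 2 rose and 3 fell in starvation, with summed log2 levels of 57.36 to 57.83 untreated, 58.17 to 58.71 after UV and 56.10 to 57.11 starved. The attachment protein gene mup-4 rose by 3.66 after UV and che-14, needed for apical secretion, changed by -2.56. Of 8 neuron markers, 7 rose in starved N2 (summed log2 level 80.18 to 82.88, against 73.63 to 74.04 untreated), 1 fell, and 5 fell after UV (68.60 to 70.54), and 6 of 7 muscle markers rose in starvation (80.57 to 81.35 against 76.34 to 76.45). Intestine markers had 3 rises and 4 falls in starvation and 1 rise after UV, germ granule markers 2 falls and 1 rise respectively. The part of these markers in the collagen changes was not tested. The signal difference between the 3' and 5' control probe sets of Gapdh was 0.73 to 0.91 in untreated N2, 0.33 to 0.62 in starved N2 and 0.29 to 0.55 in untreated daf-2 larvae, and its part was not tested either.

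A further list held col genes known from a stage or form, linked to long life, with a near-identical neighbour, or encoding a transmembrane collagen. Of 5 measured, 2 rose after UV in N2, col-2 and col-12, and 1 in starvation, col-12. The adult collagen gene col-19 had group means between 5.82 and 6.27, and its changes in N2 were 0.15 after UV and -0.15 in starvation, neither called, while it was called lower in starved daf-16 (-0.28) and daf-2;daf-16 (-0.27) larvae, calls lost without single arrays (-0.21 without daf-16 starved replicate 2 and -0.22 without daf-2;daf-16 starved replicate 4). The yolk protein genes of the adult gave 1 rise after UV and 1 fall in starvation among 5 measured, on summed log2 levels of 21.71 to 23.91 over all arrays. The deposited values carry no detection calls, so absence of a gene was not assessed. The dauer collagen gene col-2 rose by 0.36 (SE 0.13, adjusted p = 0.029) after UV in N2, a call lost without 4 of the 6 arrays in turn (0.26 without UV replicate 3). Neither col-120, linked to the long life of daf-2 adults, nor col-99, which encodes a transmembrane collagen, was called after UV or in starvation in N2. Without N2 UV replicate 1, col-120 was called higher after UV (0.43, in place of 0.29), and without N2 untreated replicate 2, col-99 was called lower in starvation (-0.45, in place of -0.24). The probe set of col-12 can also match other transcripts, and its near-identical neighbour col-13 was left out. In N2 col-12 went from 10.72, 10.64 and 10.83 to 11.47, 11.73 and 11.71 after UV (0.91, SE 0.11, adjusted p = 5.9e-08) and to 11.27, 11.66 and 11.42 in starvation (0.72, SE 0.11, adjusted p = 7.4e-07), both above all untreated arrays. Its starvation response differed between daf-16 and N2 by -0.96 (SE 0.16, adjusted p = 0.00025).

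Among all genes on a probe set annotated to 1 symbol, those most like col-159 over the 12 group means were col-160 (r = 0.988), tsp-8 (0.981), F55B11.4 (0.974), grl-4 (0.964) and col-145 (0.963). The probe sets of col-159, col-160 and col-145 can also match other transcripts, and the part of this in their likeness was not tested. Those most like col-90 were wrt-1 (0.998), ZK1025.3 (0.996), dpy-5 (0.995), F56D2.3 (0.995) and C14A4.9 (0.995). The points of these correlations are groups of the same arrays, so they describe likeness of pattern only.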

How the data were processed

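RNA of whole L1 larvae was hybridised to 36 one-colour arrays, 1 per sample. The deposited values are log2 signals per probe set, made by the authors; per the submitters' processing notes the tool was Affymetrix Power Tools, with no version or summary method named there. They were used as deposited, without 77 control probe sets. Gene symbols came from the platform annotation, where 20766 probe sets had 1 symbol, 887 several and 895 none. Groups came from the sample labels.

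One limma model (R 4.3.3, limma 3.58.1) with a mean per group was fitted to all 22548 probe sets with an intensity trend (24 residual degrees of freedom), and 19 comparisons, strain-by-treatment interactions among them, were adjusted by Benjamini-Hochberg over all probe sets. The fit was tested on simulated data. Genes named are the 10 largest called changes each way for N2 treatments and daf-2 comparisons, 5 for others and 3 for interactions. Outside the interactions, only genes whose groups did not overlap were so named, and larger changes with overlapping groups were passed over. Genes called alike in all 4 strains and the gene lists were added without that condition. The members and lists were chosen with earlier results of these data known. Alternatives were quantile normalization, median centring, no trend, array weights, a replicate block, 1 probe set per gene, no dim probe sets, no shared probe sets, only the groups compared, and arrays left out. No reference sequences were used here.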

Additional observations from a re-analysis of the deposited data

Results flagged for a closer look

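In starved daf-2;daf-16 larvae, replicate 4 lay far from the other 3 arrays in 4 of the 23 genes tested for such gaps. It read 8.23 for col-39 (others 9.20 to 9.31), 6.14 for col-41 (6.69 to 6.80), 4.47 for col-99 (4.78 to 4.79) and 9.26 for col-159 (10.37 to 10.48). Chance flags about 1 in 20 groups, and all 4 values come from the same array.

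The other values are tests of a difference between strains in the same response, each past the threshold. The UV response in daf-16 was lower than in N2 for col-80 (-1.43), col-107 (-1.24) and col-137 (-0.75), and these calls were lost without N2 untreated replicate 2 (-1.45, -1.15 and -0.68). The UV response in daf-2 was higher than in N2 for col-41 (2.23; 2.02 without N2 UV replicate 1, not called), col-48 (1.56) and col-17 (1.55), and lower for col-149 (-2.68), col-103 (-2.04) and col-176 (-1.97). Against daf-2;daf-16 it was higher for col-107 (0.96), col-91 (0.94) and col-118 (0.84) and lower for col-128 (-3.69), col-90 (-2.54) and col-149 (-1.69); without daf-2 untreated replicate 3 the values of col-107, col-91 and col-90 were 0.93, 0.86 and -2.47, and their calls were lost.

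The starvation response in daf-16 was lower than in N2 for col-98 (-1.98), col-103 (-1.80) and col-107 (-1.42). In daf-2 it was higher than in N2 for col-90 (4.48), col-41 (3.59) and col-73 (2.44) and lower for col-176 (-2.14), col-103 (-1.93) and col-159 (-1.57). Against daf-2;daf-16 it was higher for col-90 (2.36), col-41 (2.23) and col-17 (2.14), of which col-90 lost its call without daf-2;daf-16 untreated replicate 1 (1.30).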

How the results depend on the processing

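Leaving out single arrays moved the number of col genes called after UV from 59 to between 48 and 64 in N2, 24 to 43 in daf-16 (24 without UV replicate 3), 32 to 40 in daf-2 and 18 to 26 in daf-2;daf-16, and in starvation to 64 to 78, 67 to 76, 27 to 34 and 75 to 89. Between untreated strains the ranges were 29 to 45 (daf-2 against N2), 1 to 8 (daf-16 against N2), 17 to 36 (daf-2;daf-16 against N2) and 7 to 15 (daf-2 against daf-2;daf-16). Differences in the UV response gave 0 to 15 (daf-16 against N2), 16 to 22 (daf-2 against N2) and 4 to 11 (daf-2 against daf-2;daf-16), differences in the starvation response 7 to 14, 26 to 45 and 31 to 46, and UV against starvation 83 to 109. With array weights the counts were 38 for UV in daf-2;daf-16, 66, 16, 49 and 16 for those 4 strain comparisons, 26 and 18 for UV responses (daf-16 against N2, daf-2 against daf-2;daf-16), and 26 for the starvation response of daf-16 against N2; the cause was not tested. Without the 3 arrays that stand apart, daf-16 against N2 gave 16, its UV response 30, its starvation response 27, and the UV response of daf-2 against daf-2;daf-16 gave 16. With only the groups compared in the fit, which leaves fewer arrays to estimate the spread, the counts were 13, 11 and 6 for daf-16 and daf-2;daf-16 against N2 and daf-2 against daf-2;daf-16, 1 and 5 for those UV responses, and 26 for the starvation response of daf-16 against N2. Without shared probe sets 80 members were measured, and the counts were 33, 23, 20 and 12 after UV, 46, 47, 16 and 55 in starvation, 23, 3 and 15 for daf-2, daf-16 and daf-2;daf-16 against N2, 2 and 11 for the UV responses of daf-16 and daf-2 against N2, 6, 24 and 16 for the starvation responses, and 66 for UV against starvation; col-157 after UV in N2 turned from 1.05 to -0.06. With the replicate block, daf-16 against N2 had 9 calls in place of 4 for the UV response. Same-numbered arrays correlated at -0.20 to 0.43 in their deviations, and no comparison had every value over 0.1. With so few arrays these values cannot decide whether the numbers pair the arrays. Of 292 named changes, 288 kept direction and call under quantile normalization and 289 under median centring. Dim probe sets limit what can be seen: 17 members lay among the dimmest 33.3% of probe sets.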
